A study of Bos taurus with 6 samples.

Results

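Mitochondrial protein import and CHCHD transcripts were examined in cultured bovine vaginal epithelial cells (BVECs), the cells that line the cow vagina, after contact with a Lactobacillus strain. The members were selected by gene symbol. They were all features whose symbol starts with TIMM, TOMM or CHCHD, together with GFER, AIFM1, PMPCA, PMPCB, SAMM50, MTX1, MTX2, GRPEL1, PAM16 and IMMT. This gave 37 features of 18014 in the expression table. A feature is an assembled locus with its own identifier, and the 37 features carried 33 symbols because CHCHD1, CHCHD5, TIMM29 and TOMM70 had 2 features each. No row was named PAM16. No expression value enters this rule, but the list was chosen from knowledge of earlier results of the same comparison, so the differences below are given as a description of the members and not as a test of them.

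The treated cells were BVECs given strain SQ0048, a Lactobacillus of bovine vaginal origin, added at 1000000000 CFU per ml for 4 h (3 libraries, treated 1 to 3). The control cells were BVECs labelled as untreated (3 libraries, control 1 to 3). The methods state that they were handled in the same way, with culture medium. Both groups were primary epithelial cultures grown from vaginal tissue of healthy young cows, and the labels give no genotype, breed or animal for any library. The methods call the replicates biological, but neither they nor the labels say whether the 3 libraries of a group came from separate animals or from separate wells of 1 culture, so the tests measure the spread between these libraries only. Expression was given as FPKM, a measure in which fragments are scaled to transcript length and library size. The summed FPKM differed between libraries, so a comparison between libraries also depends on the scaling.

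Nearly all mitochondrial proteins are encoded in the nucleus, made in the cytosol and carried through the 2 mitochondrial membranes. Translocases of the outer membrane (TOM proteins) form the entry gate, translocases of the inner membrane (TIM proteins) pass precursors with a presequence into the matrix or insert carriers into the inner membrane, and the sorting and assembly machinery (SAM) builds barrel proteins into the outer membrane. CHCHD proteins are small proteins with pairs of cysteines. Many of them enter the intermembrane space through the disulfide relay, in which CHCHD4 (Mia40 in yeast) forms disulfide bonds in the incoming protein and the oxidase GFER recharges CHCHD4.

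The summed FPKM of all features was 372034 to 378772 in treated libraries and 343933 to 361055 in control libraries, and 1876 to 1971 features in treated libraries and 1904 to 1992 in control libraries were listed at 0. All 5 epithelial markers were high, with a summed level of 4862 to 5135 FPKM in treated cells and 4030 to 4446 FPKM in control cells. The 6 fibroblast markers summed to 487.8 to 516 FPKM in treated cells and 468.7 to 508.5 FPKM in control cells, nearly all of it from VIM. Cultured epithelial cells also express VIM, but the paper reports a few fibroblasts among the primary cells, so the sources of VIM cannot be told apart. PDGFRB was at most 0.03 FPKM in treated and 0.06 FPKM in control cells. Of the 2 immune markers only CD3E was found, and it was at 0 in treated cells and at most 0.1 FPKM in control cells. VWF, the larger of the 2 endothelial markers, was at 2.40 to 2.49 FPKM in treated and 1.5 to 1.57 FPKM in control cells, and PECAM1 was at 0 in treated cells and at most 0.04 FPKM in control cells. COL1A1 stood at 2.66 to 3.16 FPKM in treated cells and 1.93 to 2.01 FPKM in control cells, and COL1A2 at 2.55 to 2.83 and 1.6 to 1.95 FPKM. The fibroblast markers VIM, LUM, DCN and PDGFRB overlapped between groups, with LUM at 0.25 to 0.59 FPKM in treated and 0.5 to 0.68 FPKM in control cells. Of the epithelial markers, KRT8 (1350 to 1445 FPKM in treated and 1099 to 1136 FPKM in control cells) and KRT18 (1518 to 1616 FPKM in treated and 1224 to 1301 FPKM in control cells) were higher in every treated library, KRT19 and CDH1 overlapped between groups, and EPCAM also overlapped, at 240.9 to 280.5 FPKM in treated and 243.7 to 330.8 FPKM in control cells. The levels of KRT8, KRT18, VWF, COL1A1 and COL1A2 were thus higher in every treated library, and their part in the results below was not tested. In bulk RNA, fewer cells of a type and less RNA per cell cannot be told apart.

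CHCHD4 differed most clearly between the groups, at close to 6 times its control level. A fold of at least 1.5 was fitted for 6 of the tested members, CHCHD4 and CHCHD2 among them. Some of the 6 varied widely between libraries. Of the 36 members with a mean of at least 0.5 FPKM, 4 rose in treated cells (CHCHD4, CHCHD2, TIMM17A and GRPEL1), 0 fell and 32 did not pass the threshold. The threshold was an adjusted p under 0.05 in limma's moderated test on log2(FPKM + 0.1), with Benjamini-Hochberg adjustment over all 13144 features tested. The 4 features were 11.1% of the tested members, whereas 8.59% of all tested features rose and 15.8% fell. At an unadjusted p under 0.05, 7 members were higher and 0 lower in treated cells, against 14.2% of all features higher and 24.2% lower. A 2-fold difference with an unadjusted p under 0.05 in either direction, the kind of threshold the study used, was met by 1 member, CHCHD4, and by 5.52% of all features. Because the list was drawn up with this comparison known, nothing is read from these shares.

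The median log2 fold change of the 36 tested members was 0.11 (quartiles -0.07 and 0.42), and that of all tested features was -0.08 (quartiles -0.40 and 0.21). The members' median depended on single libraries, at 0.01 without control library 3, 0.18 without control library 2 and 0.09 to 0.14 without any 1 of the others, and it was 0.02 after rescaling to TPM, where that of all features was -0.17. The difference was positive for 24 members, or 66.7%, and for 42.7% of all tested features. It lay within 0.15 of 0 on the log2 scale for 14 members. All 3 treated values lay above all 3 control values in 8 members, or 22.2%, against 17.4% of all features, and below them in 2 members, or 5.56%, against 28.3% of all features. The groups overlapped in the other 26. After rescaling to TPM the treated values lay below in 7 members and in 34.8% of all features. On leaving out 1 library the count was highest without treated library 1, at 5 members against 32% of all features, and it was 4 without treated library 2 (34.5%) or control library 2 (32.9%). The members together took 0.239% ± 0.0153 of the summed FPKM in treated cells and 0.222% ± 0.0161 in control cells (SD, n = 3 each), and these ranges overlapped, at 0.222 to 0.252% in treated and 0.209 to 0.240% in control libraries.

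**Figure D1:**
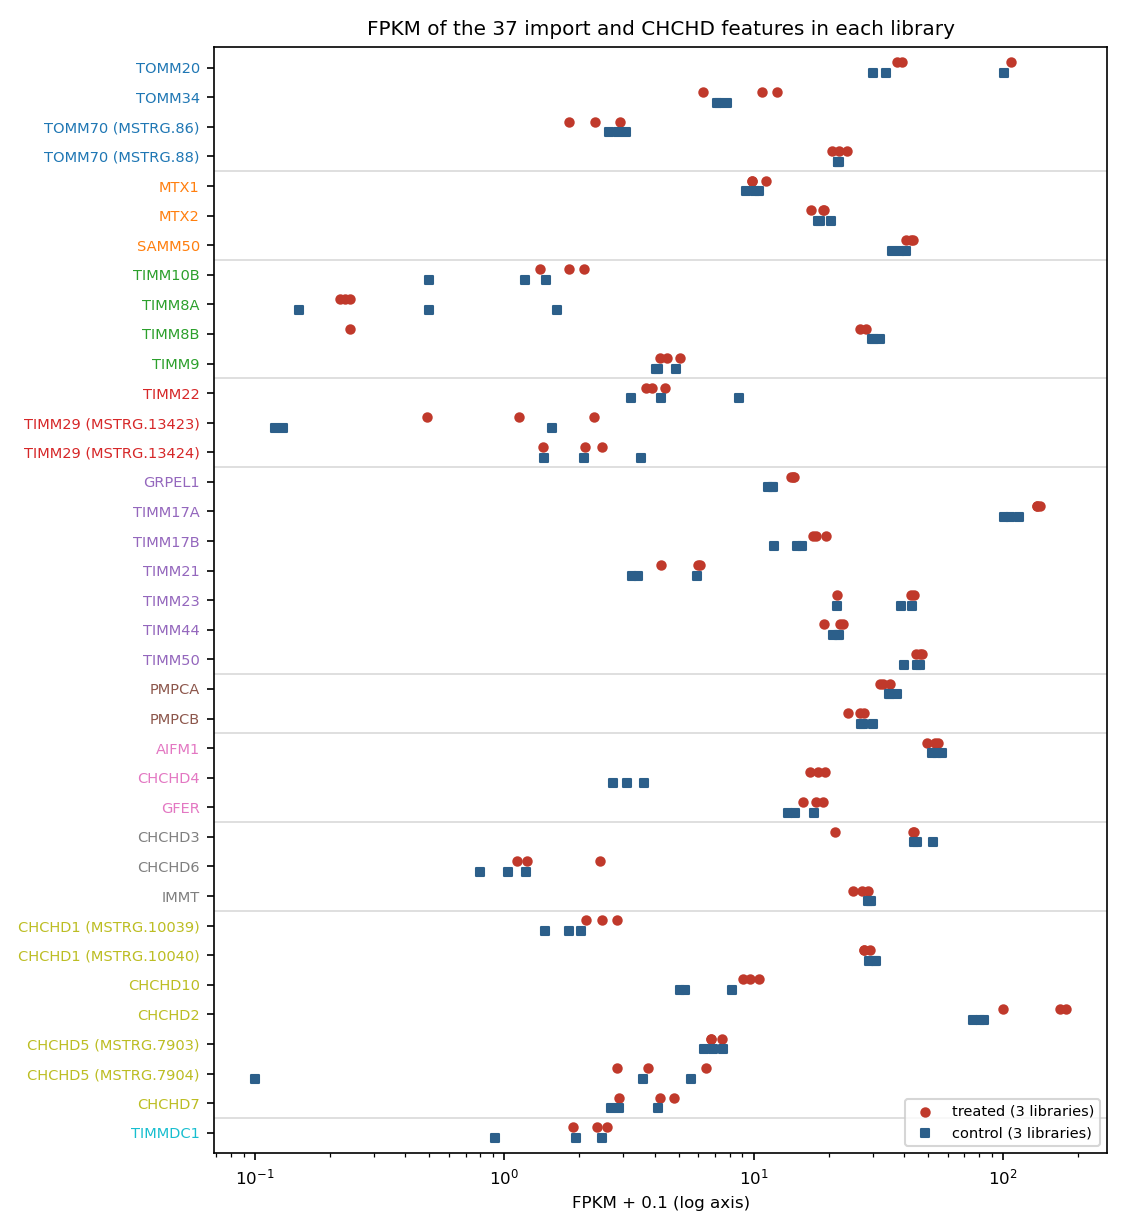
FPKM + 0.1 on a log axis for each of the 37 features, grouped by role (label colours), with 1 red circle per treated library and 1 blue square per control library. CHCHD4 is the feature whose groups stand furthest apart, with 16.68 to 19.29 FPKM in treated and 2.63 to 3.52 FPKM in control libraries, while most other rows overlap.

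**Figure D2:**
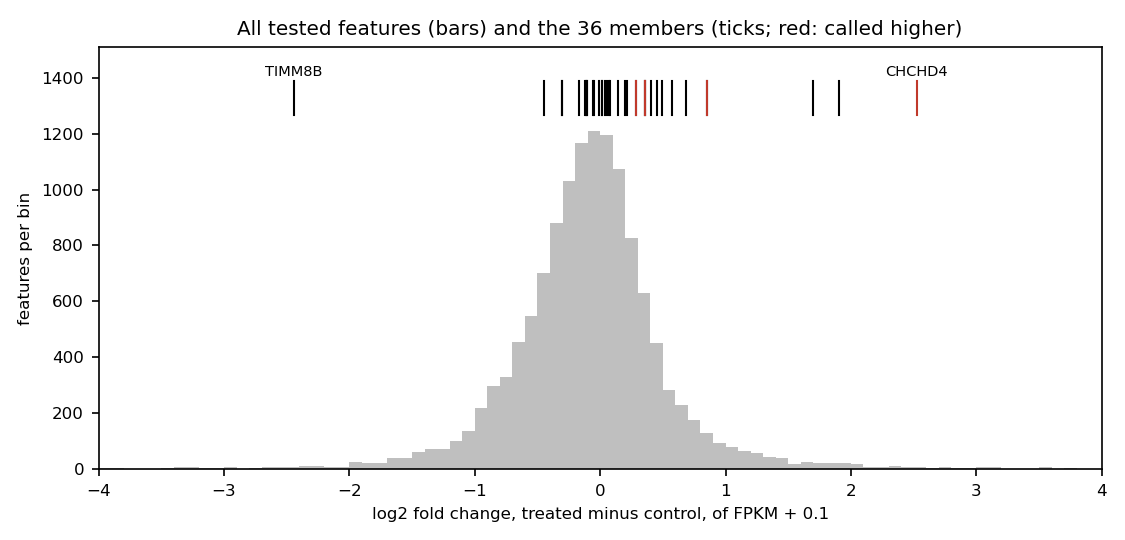
Number of tested features (grey bars) by log2 fold change of FPKM + 0.1, treated minus control, with a tick for each of the 36 tested members and red ticks for the 4 that rose. CHCHD4 lies at 2.53 in the right tail and TIMM8B at -2.45 in the left tail because of 1 treated library, and 21 features beyond the axis are not drawn.

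The disulfide relay held the largest difference. CHCHD4 (MSTRG.8099), the oxidoreductase that receives and oxidises small cysteine proteins in the intermembrane space, had 19.29, 17.94 and 16.68 FPKM in treated cells, against 3.52, 2.63 and 3.01 FPKM in control cells. Every treated library was more than 4 times as high as any control library. The means were 18.0 ± 1.31 FPKM in treated and 3.05 ± 0.447 FPKM in control cells (SD, n = 3 each). The log2 fold change was 2.53 (SE 0.12), a fold of 5.76, and the gene ranked 69 of 13144 features from the top. Its log2 fold change lay between 2.23 and 2.63 under the 15 alternative settings tried and passed the threshold in each.

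The partners of CHCHD4 did not pass the threshold. GFER (augmenter of liver regeneration, Erv1 in yeast), which passes electrons from CHCHD4 on to the respiratory chain, had 18.83, 17.64 and 15.71 FPKM in treated cells and 14.55, 17.35 and 13.63 FPKM in control cells. Its groups overlapped, with a log2 fold change of 0.20 (SE 0.12). AIFM1, a flavoprotein that binds CHCHD4 and assists its import in human cells, had 53.02, 49.41 and 54.74 FPKM in treated cells and 56.82, 51.56 and 54.23 FPKM in control cells, a log2 fold change of -0.05. In treated cells CHCHD4 and GFER were at like levels, with 16.68 to 19.29 FPKM for CHCHD4 and 15.71 to 18.83 FPKM for GFER, whereas in control cells both GFER and AIFM1 were above CHCHD4 in every library.

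Among the other CHCHD proteins, 1 of 7 features (5 symbols) rose, beside 8.59% of all tested features. Their median log2 fold change of 0.49 was the value of the weaker CHCHD1 feature described below. It also counts a CHCHD5 feature that was listed at 0 in control library 3, so it does not show a rise of the group. CHCHD2, a protein of the mitochondria that also acts as a transcription factor and is mutated in a form of human Parkinson's disease, was the most abundant member in treated libraries 1 and 2, with 179.37, 168.87 and 99.49 FPKM in treated cells and 83.56, 80.79 and 75.41 FPKM in control cells. The groups did not overlap, but treated library 3 lay much nearer to the control libraries than the other treated libraries did. The log2 fold change of CHCHD2 was 0.85 (SE 0.23), with means of 149.2 ± 43.4 FPKM in treated and 79.9 ± 4.14 FPKM in control cells (SD, n = 3 each). The call for CHCHD2 was lost in 10 of the 15 alternatives. These included leaving out treated library 1 (0.70) or 2 (0.74) or control library 1 (0.89), 2 (0.86) or 3 (0.81), and its log2 fold change was 1.12 without treated library 3.

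CHCHD10 is the closest relative of CHCHD2, with which it forms a complex in human cells. It had 10.43, 9.56 and 8.97 FPKM in treated cells, against 4.97, 8.10 and 5.22 FPKM in control cells. All treated values were above all control values, yet control library 2 lay near the treated ones. With a log2 fold change of 0.69 (SE 0.20) it did not pass the threshold, although it did without control library 2 (0.91) and under 2 other scalings, the size factors (0.76) and quantile normalization (0.80).

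CHCHD1, a subunit of the mitochondrial ribosome, was split over 2 features that went different ways. The weaker one (MSTRG.10039) had 2.36, 2.73 and 2.03 FPKM in treated and 1.71, 1.93 and 1.35 FPKM in control cells, with no overlap and a log2 fold change of 0.49 (SE 0.18). The stronger one (MSTRG.10040) had 29.05, 27.48 and 27.63 FPKM in treated and 28.93, 30.91 and 30.54 FPKM in control cells, with overlap and a log2 fold change of -0.10. Neither passed the threshold, and the strong feature carried most of the signal of this gene.

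CHCHD5 was split as well. Its first feature (MSTRG.7903) differed little, with 6.61, 7.34 and 6.63 FPKM in treated cells and 6.78, 7.44 and 6.19 FPKM in control cells (log2 fold change 0.01). The second (MSTRG.7904) had 3.65, 2.74 and 6.36 FPKM in treated cells and 5.51 and 3.51 FPKM in control libraries 1 and 2, and was listed at 0 in control library 3, so no fold is given. CHCHD7 (COX23 in yeast) had 2.77, 4.11 and 4.68 FPKM in treated and 2.77, 4.05 and 2.57 FPKM in control cells, and its groups overlapped.

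**Figure D3:**
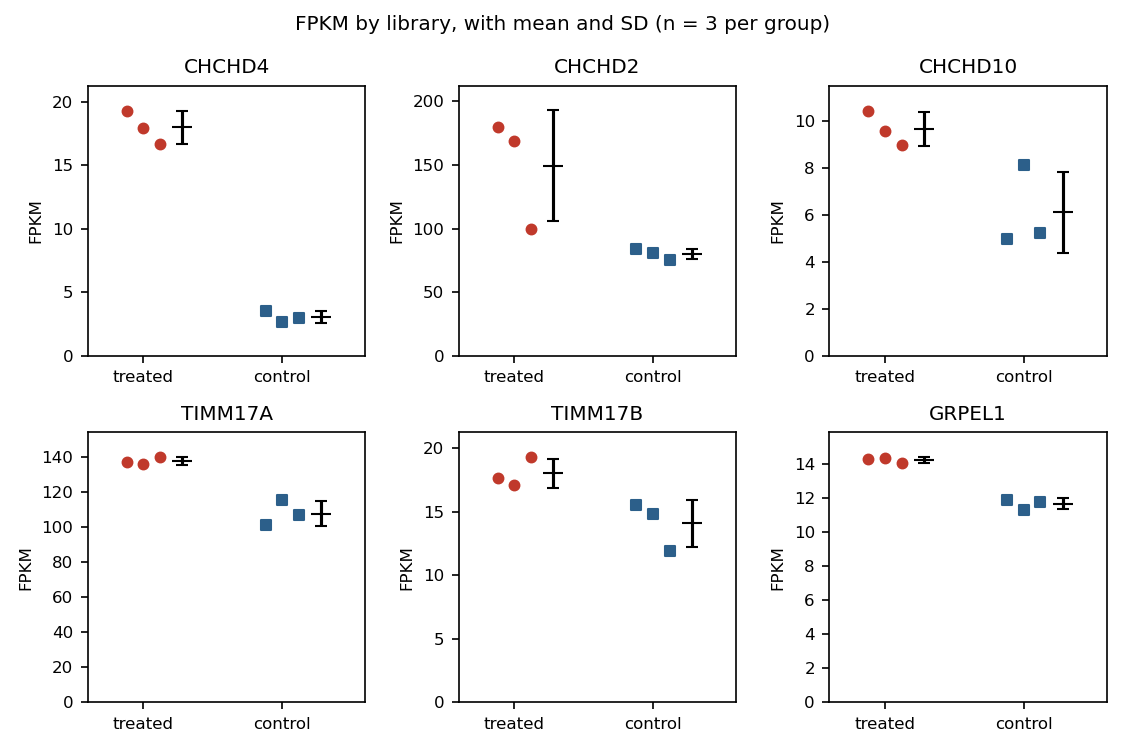
FPKM from 0 in each library (red circles, treated; blue squares, control) with the mean and SD of 3 libraries, for the 4 members that rose (CHCHD4, CHCHD2, TIMM17A, GRPEL1) and for CHCHD10 and TIMM17B, which did not pass the threshold although their groups do not overlap. The gap is wide for CHCHD4 and narrow for TIMM17A and GRPEL1, and treated library 3 of CHCHD2 (99.49 FPKM) sits far below the other treated libraries.

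The presequence translocase and its motor, which thread precursors through the inner membrane, gave 2 of the 4 members that rose. They were 2 of 7 tested features, beside 8.59% of all tested features, and nothing is read from so small a count. The median log2 fold change of the 7 was 0.29. TIMM17A (MSTRG.3915), a subunit of the TIM23 channel complex whose protein is short-lived under stress in human cells, had 137.04, 136.13 and 139.99 FPKM in treated cells, against 100.99, 115.42 and 106.84 FPKM in control cells. The treated values were close to each other and all above the control values. The means were 137.7 ± 2.02 FPKM in treated and 107.8 ± 7.26 FPKM in control cells (SD, n = 3 each). The log2 fold change was 0.36 (SE 0.06), a fold of 1.28. This was the most abundant member of the translocase.

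GRPEL1 (MSTRG.13171), the nucleotide exchange factor of the matrix Hsp70 motor, had 14.27, 14.37 and 14.04 FPKM in treated cells, against 11.90, 11.29 and 11.79 FPKM in control cells. Both groups were tight and did not overlap. The means were 14.2 ± 0.169 FPKM in treated and 11.7 ± 0.325 FPKM in control cells (SD, n = 3 each). The log2 fold change was 0.29 (SE 0.05), a fold of 1.22. The call was lost in 6 of the 15 alternatives, among them leaving out treated library 1 (0.28) or 3 (0.30) or control library 1 (0.30) or 2 (0.26), and rescaling each library to a common sum (TPM), where the log2 fold change was 0.20.

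TIMM17B, the second form of the TIMM17 subunit, had 17.66, 17.12 and 19.31 FPKM in treated and 15.51, 14.79 and 11.95 FPKM in control cells. Its log2 fold change of 0.36 (SE 0.12) was as large as that of TIMM17A, with no overlap, but its control values spread more and it did not pass the threshold. On the FPKM scale TIMM17A was several times more abundant than TIMM17B in all 6 libraries.

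The other translocase subunits overlapped between groups. TIMM21, which in yeast docks the complex to the outer membrane gate, had 5.97, 4.14 and 5.85 FPKM in treated and 3.15, 3.35 and 5.81 FPKM in control cells. TIMM50, the presequence receptor, had 47.29, 44.81 and 46.15 FPKM in treated and 46.28, 45.19 and 39.80 FPKM in control cells. TIMM44, which tethers the motor to the channel, had 22.76, 19.06 and 22.06 FPKM in treated and 21.81, 21.64 and 20.68 FPKM in control cells. The log2 fold changes of these 3 subunits were 0.40, 0.08 and -0.01 in that order.

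TIMM23, the channel protein itself, fell into high and low values within both groups. It had 21.48, 42.51 and 43.64 FPKM in treated and 38.87, 42.94 and 21.45 FPKM in control cells, so that treated library 1 and control library 3 stood at about the same low level. Its log2 fold change was 0.05 (SE 0.39). In the RefSeq annotation of another build, ARS-UCD2.0, the span of TIMM23 overlaps a small nucleolar RNA gene.

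At the outer membrane, none of the 4 features of the translocase passed the threshold, and their median log2 fold change was 0.11. TOMM20, the receptor that recognises presequences, had 39.12, 107.62 and 37.49 FPKM in treated and 100.91, 33.72 and 29.86 FPKM in control cells. In each group 1 library stood more than 2.5 times above the others, and the log2 fold change was 0.21 (SE 0.63). The span of TOMM20 also overlaps a small nucleolar RNA gene.

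TOMM70, the receptor for carrier precursors, had a strong feature (MSTRG.88) at 21.96, 23.56 and 20.49 FPKM in treated and 21.73, 21.87 and 21.71 FPKM in control cells. Its log2 fold change was 0.01, the level thus differing by less than the spread of the treated libraries. The weak TOMM70 feature (MSTRG.86) had 1.71, 2.81 and 2.20 FPKM in treated and 2.75, 2.96 and 2.53 FPKM in control cells. TOMM34, a cytosolic cochaperone of import, had 12.33, 6.14 and 10.72 FPKM in treated and 7.14, 7.02 and 7.69 FPKM in control cells. Treated library 2 was below every control library and the other treated libraries above, and without treated library 2 the gene passed the threshold with a log2 fold change of 0.65 in place of 0.35.

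The SAM components differed little, with a median log2 fold change of 0.04 over 3 features. SAMM50, the barrel protein of the machinery, had 42.44, 40.69 and 43.42 FPKM in treated and 38.61, 40.59 and 35.75 FPKM in control cells. Its groups did not overlap, although the lowest treated and the highest control value lay side by side, and with a log2 fold change of 0.14 (SE 0.07) it did not pass the threshold. The metaxins MTX1 and MTX2, its partners, had log2 fold changes of 0.04 and -0.05. MTX1 ranged over 9.71 to 11.07 FPKM in treated and 9.19 to 10.42 FPKM in control cells, and MTX2 over 16.91 to 18.95 FPKM in treated and 18.04 to 20.29 FPKM in control cells.

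The small chaperones of the intermembrane space, which escort carrier precursors between the membranes, had 3 of 4 features above the filter and none past the threshold. TIMM8B had 28.02, 0.14 and 26.49 FPKM in treated cells and 29.67, 31.86 and 30.38 FPKM in control cells. The groups did not overlap, but the fitted log2 fold change of -2.45 (SE 1.91) rested on treated library 2, where the gene was almost absent from the table. Without treated library 2 it was -0.17. The RefSeq span of TIMM8B overlaps another gene, NKAPD1.

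TIMM8A, a paralog of TIMM8B that is mutated in human deafness-dystonia syndrome, was below the filter, with 0.13, 0.12 and 0.14 FPKM in treated and 0.40, 1.53 and 0.05 FPKM in control cells. TIMM9 had 4.37, 4.95 and 4.09 FPKM in treated and 3.97, 4.03 and 4.79 FPKM in control cells. TIMM10B, which joins the chaperones to the carrier translocase, had 1.29, 1.98 and 1.72 FPKM in treated and 1.37, 0.40 and 1.11 FPKM in control cells. All 3 overlapped between groups. The log2 fold changes of TIMM9 and TIMM10B were 0.07 and 0.86, and TIMM8A was not tested.

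The carrier translocase, which inserts metabolite carriers into the inner membrane, was represented by TIMM22 and by 2 features of TIMM29, none past the threshold. TIMM22, its channel, had 4.31, 3.82 and 3.6 FPKM in treated and 8.64, 4.14 and 3.13 FPKM in control cells, and control library 1 stood apart. TIMM29, a subunit that links it to the outer membrane in human cells, had 2.37, 2 and 1.33 FPKM in treated and 1.99, 3.42 and 1.34 FPKM in control cells for MSTRG.13424. The other TIMM29 feature (MSTRG.13423) had 0.39, 1.04 and 2.18 FPKM in treated and 0.02, 1.45 and 0.03 FPKM in control cells, too low and too spread to rank.

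The presequence peptidase, which trims the presequence off precursors in the matrix, was a little lower in treated cells in both subunits, without passing the threshold. PMPCA had 32.82, 34.97 and 32.02 FPKM in treated and 37.42, 34.61 and 35.20 FPKM in control cells. PMPCB, the catalytic subunit, had 27.55, 26.58 and 23.70 FPKM in treated and 26.75, 27.25 and 29.96 FPKM in control cells. Their log2 fold changes of -0.10 and -0.11 were close to the median of all tested features, and both overlapped between groups.

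The members of the cristae organising complex (MICOS), which shapes the folds of the inner membrane, did not pass the threshold either. IMMT (mitofilin), its core subunit, had 27.02, 24.92 and 28.63 FPKM in treated and 29.33, 28.74 and 29.22 FPKM in control cells. Its treated values were all below its control values, although the highest treated and the lowest control value lay side by side, and its log2 fold change was -0.12 (SE 0.07). CHCHD3, which binds IMMT, had 44.00, 43.43 and 21.11 FPKM in treated and 52.04, 44.00 and 44.95 FPKM in control cells. Treated library 3 set most of its log2 fold change of -0.45 (SE 0.30), which was -0.10 without that library.

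CHCHD6, a weakly expressed MICOS subunit, had 2.31, 1.13 and 1.02 FPKM in treated and 0.70, 0.93 and 1.12 FPKM in control cells, with overlap. TIMMDC1 is named as a TIMM gene, but its product is an assembly factor of respiratory complex I. It had 2.25, 1.78 and 2.47 FPKM in treated and 0.82, 1.84 and 2.37 FPKM in control cells, and its groups overlapped.

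**Figure D4:**
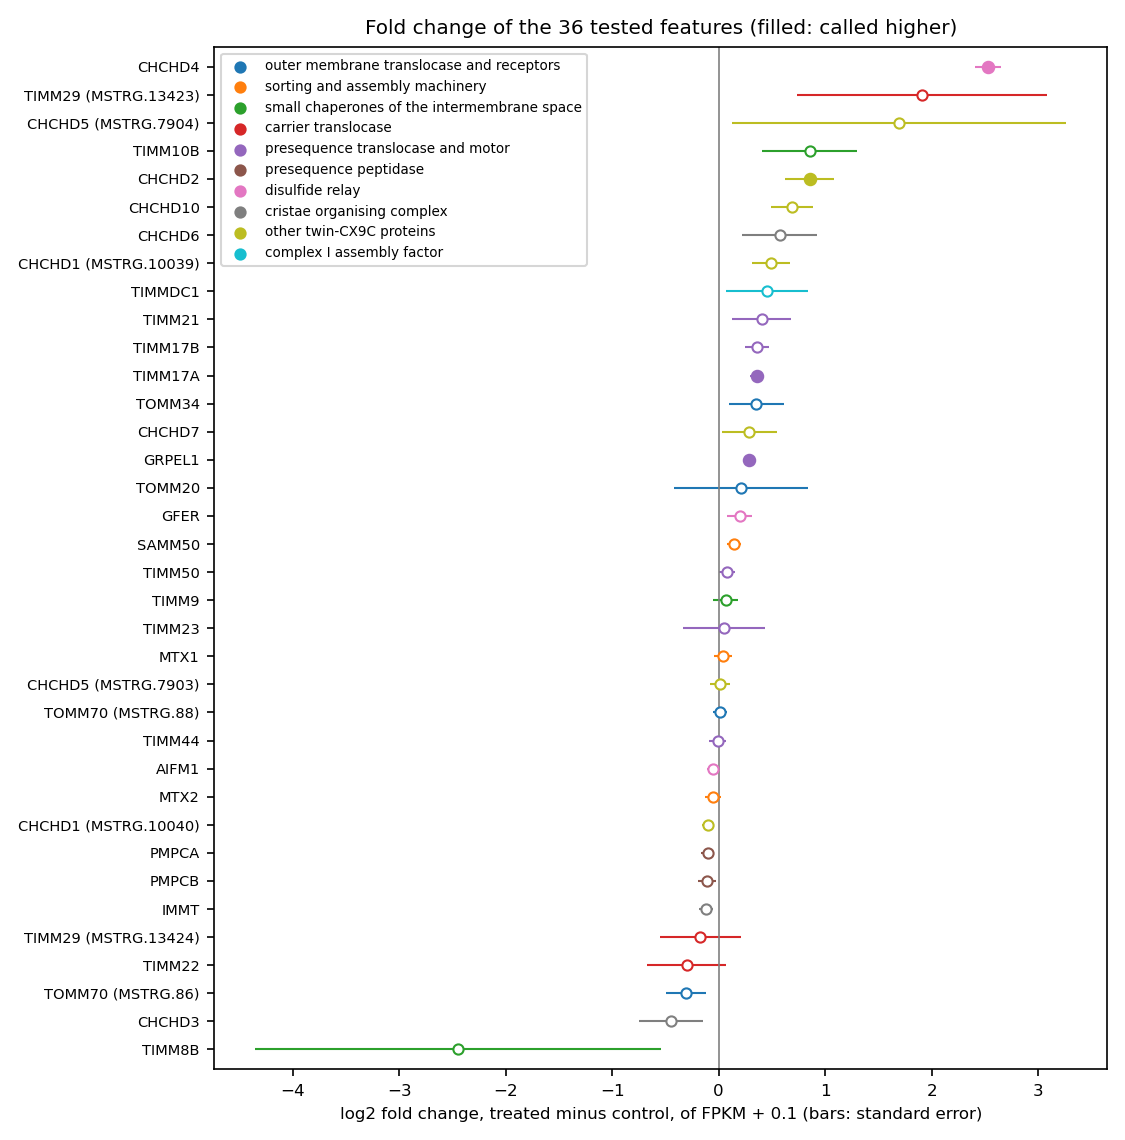
Log2 fold change of FPKM + 0.1, treated minus control, with standard errors for the 36 tested features in order of size, coloured by role, with filled points for the 4 that rose. CHCHD4 (2.53, SE 0.12) is set apart by a short bar, while the long bars of TIMM8B (SE 1.91), CHCHD5 MSTRG.7904 (SE 1.57) and TIMM29 MSTRG.13423 (SE 1.18) belong to features with a library at or near 0.

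Several abundant members showed large steps between libraries of 1 group. Of 24 members with a mean of at least 5 FPKM, 5 (20.8%) differed 2-fold or more between libraries of the same group, namely CHCHD3, TIMM23, TIMM8B, TOMM20 and TOMM34, against 834 of 7053 features (11.8%). The difference between these shares was not tested. Within the treated group the library that stood apart was not the same one for each gene, since it was treated library 1 for TIMM23, treated library 2 for TOMM20, TOMM34 and TIMM8B, and treated library 3 for CHCHD3. The median within-group SD on the log2 scale was 0.19 for members and 0.18 for all tested features. In RefSeq, the span of 8 of the 33 symbols overlaps another gene, among them TIMM23, TIMM8B and TOMM20 but neither CHCHD3 nor TOMM34.

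**Figure D5:**
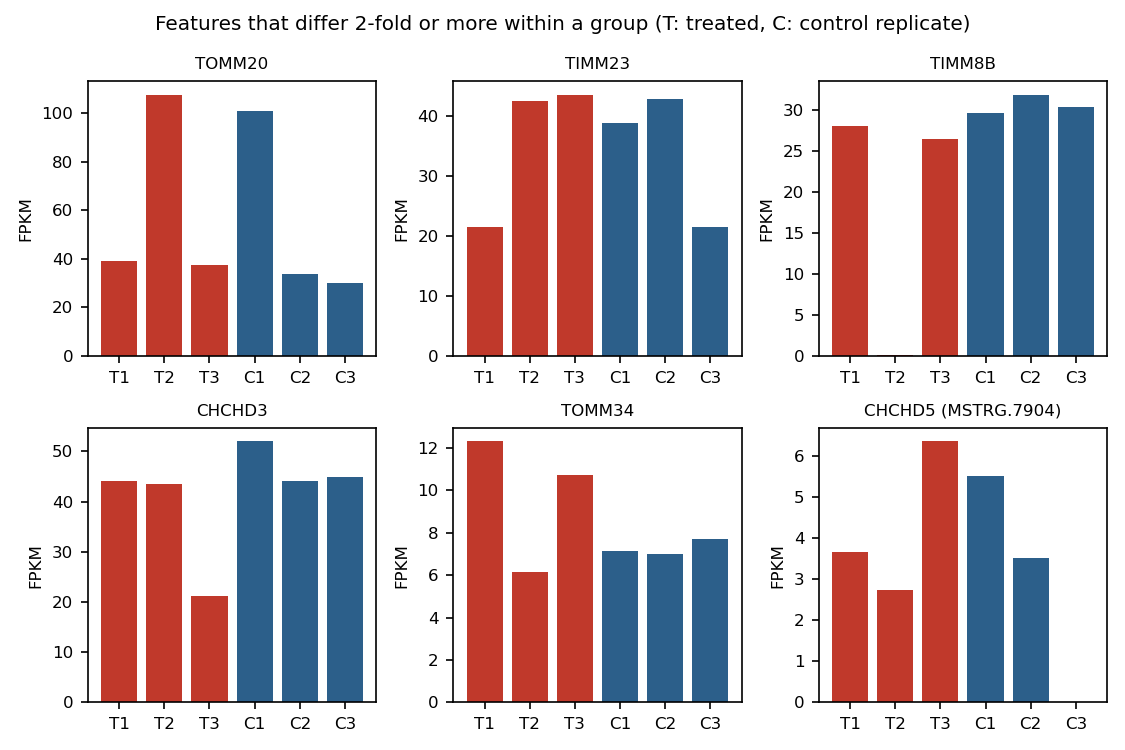
FPKM per library (bars from 0; red, treated 1 to 3; blue, control 1 to 3) of the 5 members that differ 2-fold or more within a group at a mean of at least 5 FPKM, and of CHCHD5 MSTRG.7904, which is listed at 0 in control library 3. TIMM8B is at 0.14 FPKM in treated library 2 and at 26.49 FPKM or more in all other libraries, and TOMM20 has 1 high library in each group.

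Beyond the members, 54 symbols of import, intermembrane space and quality control genes were listed, of which 38 were found in 39 features. Of these 39, 3 rose (7.69%), 3 fell (7.69%) and 33 did not pass the threshold, beside 8.59% and 15.8% of all tested features, and their median log2 fold change was 0.06. HSPE1, the cofactor of the matrix chaperonin, had 193.02, 222.69 and 222.36 FPKM in treated and 155.51, 178.47 and 149.57 FPKM in control cells, a log2 fold change of 0.40 (SE 0.09). PHB2, a prohibitin that forms rings in the inner membrane, had 115.98, 114.05 and 116.65 FPKM in treated and 93.94, 91.69 and 87.29 FPKM in control cells, a log2 fold change of 0.35 (SE 0.05). In both genes every treated value was above every control value, and so it was in PHB, the other prohibitin, with 94.64, 87.60 and 92.10 FPKM in treated and 75.04, 77.88 and 67.20 FPKM in control cells, a log2 fold change of 0.32 (SE 0.07).

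The genes of this list that fell were MTX3 and MTCH2. MTX3, another metaxin, was low in both of its features, with 0.39, 0.32 and 0.34 FPKM in treated and 0.86, 1.01 and 0.72 FPKM in control cells for MSTRG.639, a log2 fold change of -1.09 (SE 0.25). The second MTX3 feature (MSTRG.640) had 0.59, 0.49 and 0.53 FPKM in treated and 0.96, 1.22 and 1.2 FPKM in control cells, so both features separated the groups in the same direction. MTCH2, an insertase of the outer membrane, had 29.79, 31.83 and 33.68 FPKM in treated and 38.11, 37.18 and 37.89 FPKM in control cells, a log2 fold change of -0.25 (SE 0.06). The HSPE1 call was lost in 8 of 15 alternatives, among them TPM (0.31), quantile normalization (0.29) and the fit without the trend. It was also lost without treated library 2 (0.37) or 3 (0.37) or control library 1 (0.38) or 3 (0.35). The PHB call was lost without the trend and without treated library 1 (0.29) or 3 (0.31) or control library 1 (0.34) or 3 (0.26). The MTCH2 call was lost with size factors (-0.17), without the trend and without treated library 1 (-0.20) or 2 (-0.25) or control library 1 (-0.24), 2 (-0.26) or 3 (-0.25). The MTX3 calls were lost without treated library 1 or 3 or control library 2, and for 1 feature each without control library 1 or 3, at -1.15 to -0.98 for MSTRG.639 and -1.0 to -0.89 for MSTRG.640. That for PHB2 was kept in 14 of 15 alternatives.

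The list also held 14 small cysteine-pair proteins of the kind that the disulfide relay imports, of which 9 were found (COX17, COX19, CMC1, COA5, NDUFA8, NDUFB7, NDUFS5, COX6B1 and TRIAP1). This group was put together after the values had been seen. None of the 9 passed the threshold, all overlapped between groups, and 7 lay within 0.15 of 0 on the log2 scale. Of these 7, COX19 spread widely, at 1.77 to 8.3 FPKM in treated and 2.46 to 7.29 FPKM in control cells. Its log2 fold change of -0.07 (SE 0.67) is thus imprecise. The features outside that band each had 1 low control library. COX6B1, a subunit of cytochrome c oxidase, had 237.83, 207.95 and 228.80 FPKM in treated cells and 223.67 and 185.14 FPKM in control libraries 2 and 3, and was listed at 0 in control library 1, so no fold is given. TRIAP1 had 17.88, 18.80 and 15.68 FPKM in treated and 17.58, 18.04 and 0.27 FPKM in control cells.

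A further 7 features name a translocase subunit in their description but carry another symbol or only an identifier, and they were added after the values had been seen. None of the 7 passed the threshold. TOM22, the central receptor, had 27.56, 26.10 and 24.15 FPKM in treated and 21.19, 24.54 and 24.21 FPKM in control cells. TIM10, a small chaperone, had 10.32, 9.55 and 9.49 FPKM in treated and 8.72, 8.39 and 8.32 FPKM in control cells, without overlap. TIM13 went the other way, with 5.51, 6.26 and 6.49 FPKM in treated and 6.58, 7.19 and 7.24 FPKM in control cells, also without overlap. TOM5, a small subunit of the outer membrane gate, had 0.06, 0.07 and 8.12 FPKM in treated cells, against 0.03 FPKM in control library 2 and 0 in control libraries 1 and 3. Its groups did not overlap either, but only treated library 3 held an appreciable level, and no fold is given. TOM40, the pore of the outer membrane, overlapped between groups, at 26.49 to 37.79 FPKM in treated and 25.35 to 36.41 FPKM in control cells.

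The table also gives Gene Ontology terms for 33 of the 37 members. Of these, 30 carry the term for mitochondrion, including the 4 that rose. Of all 1119 tested features with that term, 115 rose and 103 fell, which is to be read beside the 8.59% and 15.8% of all tested features. The term for import into the mitochondrial matrix is carried by 12 tested features, of which 3 rose and 0 fell, and 6 of the 12 are members, including 2 of those that rose. The term for the intermembrane space is carried by 8 members, 2 of which rose, and by 41 tested features, of which 3 rose and 3 fell.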

How the data were processed

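The authors isolated poly(A) mRNA from total RNA of the BVECs and sequenced 6 libraries. For library preparation the methods name both a TruSeq stranded mRNA kit and an NEBNext Ultra RNA kit. The submitters' processing notes name HISAT2 2.0, StringTie 1.3.0, Bowtie 0.12.2 and the build ARS-UCD1.2, and the methods name Cufflinks for FPKM. The sources used here do not give their strand setting. The authors deposited 1 table of FPKM per assembled gene with 2 decimals. It holds no read totals, so no counting interval is given. It gives no coordinates that are used here, and RefSeq (ARS-UCD2.0) served only for names and overlapping spans. There were 0 unused value columns.

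FPKM was tested as log2(FPKM + 0.1) for features averaging 0.5 FPKM or more, by limma 3.58.1 in R 4.3.3 (condition only, trended prior, two-sided, Benjamini-Hochberg adjustment). A fold on this scale understates the change of weak features. With 3 against 3 libraries an exact permutation test cannot go below 0.1. The fit was also run on simulated data with 200 changed features. The simulated differences were larger than those of CHCHD2, TIMM17A and GRPEL1, so that run says nothing about calls of their size. Summaries and figures used Python 3.11.15, pandas 2.3.3 and matplotlib 3.10.9.

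The members, roles and lists were chosen with earlier results of these data known. All members are named, and called members and members listed at 0 are given by library. From the list of other pathway genes, the 2 called genes with the largest difference in each direction are named. PHB and the cysteine-pair proteins were named after their values were seen.

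Alternatives were pseudocounts of 1 and 0.01, no filter, a stricter filter (mean of 5 FPKM), median-of-ratios size factors, quantile normalization, a TPM rescaling, no trend, a replicate block, leaving out each library, and 1 feature per symbol. Size factors were taken from FPKM.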

Additional observations from a re-analysis of the deposited data

How the results depend on the processing

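Under the 15 alternatives, 23 of 36 tested members kept one sign and 13 changed it in some setting. No call changed direction. CHCHD4 passed in all settings, and 2 members that had not passed, TOMM34 and CHCHD10, did so in some. The number of all features past the threshold was 3201, and it was 847 with a replicate block and 1662 to 2966 on leaving out 1 library. The members that rose numbered 4, and 2 after rescaling to TPM, 1 (CHCHD4) with a replicate block and 2 to 4 on leaving out 1 library, with the 2 at treated library 1 and control library 1. TIMM17A lost its call only with the block, and CHCHD2 and GRPEL1 also after rescaling to TPM. Members whose treated values all lay below their control values numbered 2, and 7 after rescaling to TPM, 1 with size factors and 2 to 5 on leaving out 1 library. The shares of all features in the same order were 28.3%, 34.8%, 23% and 30.9 to 34.5%, so the whole table moved with the setting. Other pathway genes that rose numbered 3, and 5 with size factors, 1 without the trend, 0 with a replicate block and 1 to 4 on leaving out 1 library. Those that fell numbered 3, and 0 with a replicate block and 0 to 4 on leaving out 1 library. The members' median lay between 0.011 and 0.176 on leaving out 1 library. The cause of these shifts was not tested.

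Same-numbered treated and control libraries did not deviate together (correlations -0.012, 0.001 and 0.010). These correlations cannot show how the libraries were prepared, and the labels do not say whether the numbers pair them. The median log2 fold change of all features was -0.08 as deposited, -0.17 after rescaling to TPM, -0.01 with size factors and -0.01 after quantile normalization, while that of the members was 0.11, 0.02, 0.19 and 0.17 in the same order. The table gives no read totals, and the paper gives read numbers only as group means. The reads behind weak features such as TIMM8A or CHCHD6 are therefore not known by library.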
